A study of Homo sapiens with 2 samples.

Results

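The miR-146 products were profiled by small RNA sequencing in MDA-MB-231-IV2-1 cells, a highly metastatic subline that was selected in mice from MDA-MB-231, a human line of triple-negative breast cancer. The members were all rows of both deposited tables named for miR-146a or miR-146b, from either arm of the hairpin. There were 3 such rows among the 425 mature miRNAs listed in either library. They were miR-146a-5p, miR-146b-5p and miR-146b-3p, and miR-146a-3p was listed in neither library. The control library came from cells transfected with the scrambled siRNA control (N.C), and the knockdown library from cells transfected with the pooled siRNAs against the long non-coding RNA LOC550643. RNA of both was taken 48 h after transfection, and the small RNA profiles were made to look for miRNAs that respond to LOC550643. The titles name the IV2 subline and the cell line field names MDA-MB-231. Each condition had 1 library of 1 subline, so no difference could be checked against replicates and no test was run.

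MicroRNAs are cut from hairpin transcripts and guide Argonaute proteins to mRNAs, mainly through the seed, which is bases 2 to 8 of the mature strand. The miR-146 genes are known as negative feedback regulators of NF-kB signalling. NF-kB induces transcription of miR-146a, and the miRNA then represses TRAF6 and IRAK1, which carry the signal from Toll-like and interleukin-1 receptors to NF-kB. In MDA-MB-231 cells, miR-146 has been described as a suppressor of NF-kB activity, invasion and migration.

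The mature sequences are shown because the comparison of the paralogs turns on the few bases at which they differ. They are written 5′ to 3′ as RefSeq gives them, with the seed in capitals.
miR-146a-5p: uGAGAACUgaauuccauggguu
miR-146b-5p: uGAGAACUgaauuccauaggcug
miR-146b-3p: gCCCUGUGgacucaguucuggu
Both 5p strands began with the same 17 nt and shared the seed GAGAACU. Counted from the 5′ end, with the base of miR-146a-5p first, they differed by G18A and U21C, and miR-146b-5p was 23 nt long against 22 nt for miR-146a-5p. A read that ends before base 18 therefore fits both. The 3p strand of miR-146b had another seed, CCCUGUG. Of the 3 human mature miRNAs in the RefSeq table with the seed GAGAACU, the third, miR-7153-5p, was listed in neither library, so that the sum of the 5p strands was the whole of this seed family in the tables.

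The hairpins show where the measured strands lie, with both mature arms in capitals (RefSeq, GRCh38.p14).
MIR146A: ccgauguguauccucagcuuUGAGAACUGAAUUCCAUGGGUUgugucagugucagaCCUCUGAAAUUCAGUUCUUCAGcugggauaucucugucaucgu
MIR146B: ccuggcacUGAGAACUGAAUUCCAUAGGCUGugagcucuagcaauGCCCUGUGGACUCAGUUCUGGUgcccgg
The MIR146A hairpin (99 nt) lies on the plus strand of chromosome 5 from 160485352 to 160485450. In the GENCODE 29 annotation it is inside exon 2 (160485299 to 160487426) of the long non-coding host gene MIR3142HG. The MIR146B hairpin (73 nt) lies on the plus strand of chromosome 10 from 102436512 to 102436584, in no other annotated gene. NFKB2, the gene of the NF-kB subunit p100/p52, ends 34.0 kb before it. CUEDC2, on the minus strand, has its start 3.9 kb before it. The paralogs thus lie on different chromosomes, and miR-3142, the other miRNA of the MIR3142HG locus, was listed in neither library.

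The binding sites of the family in its best known targets are shown to place the seed. The reverse complement of the seed is AGTTCTC, and it occurred 3 times in transcript TRAF6-202 and 2 times in transcript IRAK1-203 of GENCODE 29, each time in the last exon and in the 3′ untranslated region. For each gene the first site is given, with the match in capitals.
TRAF6: tgctctagaaagttgAGTTCTCattttttt
IRAK1: aaatccggaagtcaaAGTTCTCatggtcag
The match of TRAF6 is at bases 36489359 to 36489365 of chromosome 11 (exon 7, minus strand), and that of IRAK1 at 154011813 to 154011819 of chromosome X (exon 14, minus strand). These matches are descriptions of the sequence, and mRNA levels of TRAF6 and IRAK1 were not analysed here. In the LOC550643 isoforms V1, V2 and V3 (718, 581 and 476 nt), neither AGTTCTC nor GTTCTC, the match to bases 2 to 7, occurred. The corresponding letters for miR-146b-3p, CACAGGG and ACAGGG, were also found 0 times in the 3 isoforms.

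The values are RPM, the reads of a miRNA scaled to a common total of miRNA reads, which make shares of a library and not amounts per cell. From the spacing of the low values, 1 read was worth 5.29 RPM in the control and 2.03 RPM in the knockdown library, so that the depths were about 189029 and 491535 reads. Intervals are 95% Clopper-Pearson intervals of the estimated reads, with values at 0.5 read rounded up, and cover counting error only. For a count of 0, the limit was set at 3 reads, a one-sided bound that is lower than the upper end of the two-sided interval (19.5 and 7.50 RPM). This limit is 15.9 RPM in the control and 6.10 RPM in the knockdown library. The cells were checked against marker miRNAs: 4 of 6 epithelial miRNAs (the miR-200 family and miR-205-5p) were at 0 in both libraries and the 6 together reached 10.6 RPM in the control and 8.14 RPM in the knockdown library. All 5 blood cell miRNAs, among them miR-142-3p and miR-223-3p, were at 0 in both. The 5 miRNAs listed for mesenchymal-like triple-negative lines summed to 189200 and 134300 RPM, of which miR-100-5p alone made up 93.3% and 92.2%. Another of them, miR-31-5p, had 1 read in the control and 3 reads in the knockdown library.

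In both libraries miR-146a-5p was the main product. Its level was 2664 RPM in the control (interval 2439 to 2909) and 2025 RPM in the knockdown library (1903 to 2156). It ranked 26th of 376 miRNAs in the control and 32nd of 375 in the knockdown library. The level of miR-146b-5p was 600.4 RPM in the control (497.5 to 724) and 809 RPM in the knockdown library (732 to 893), a difference in the other direction. Its rank was 57 in the control and 55 in the knockdown library. The lower paralog in the knockdown library was thus still miR-146b-5p, whose highest bound there lay below the lowest bound of miR-146a-5p.

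**Figure D1:**
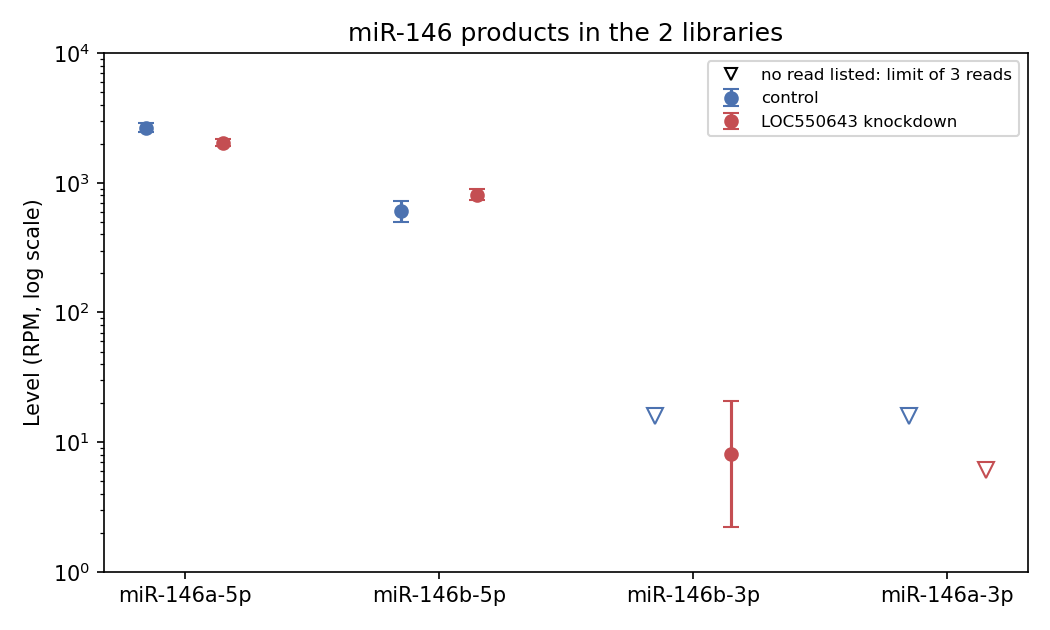
Level of each miR-146 product in RPM on a log axis, in the control and the LOC550643 knockdown library; points are the deposited values, bars are 95% counting intervals, and open triangles mark the 3-read limit where no read was listed. The 5p strands lie between 600.4 and 2664 RPM, and the 3p strands at or under 15.9 RPM.

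Reads came almost wholly from the 5p arm, the guide strand of both hairpins. No control read was assigned to miR-146b-3p, against 4 reads after knockdown (8.14 RPM, interval 2.22 to 20.8 RPM). As 8.14 RPM is under the 3-read limit of the control library, a difference of miR-146b-3p was not detectable at this depth, and no fold change is given. Among the MIR146B reads of the knockdown library, 0.995% were from the 3p arm (interval 0.272% to 2.53%), and the 3-read limit is 2.63% in the control library. For the MIR146A hairpin, with 0 reads on the 3p arm, the 3-read limit allows a 3p share of up to 0.595% in the control and 0.301% in the knockdown library.

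In abundance the family was among the 25 highest of the listed miRNAs when its strands were summed. Both 5p strands together came to 3264 RPM in the control (0.326% of all) and 2834 RPM after knockdown (0.283%), a sum that would rank 22nd and 25th as a single miRNA. The oncogenic miR-21-5p, another miRNA induced by NF-kB, was 54.0-fold and 62.1-fold more abundant than this sum. The control neighbours of miR-146a-5p were miR-103a-3p (rank 24, 2832 RPM) and miR-26a-5p (rank 25, 2818 RPM) above it, and miR-140-3p (rank 27, 2402 RPM) and let-7c (rank 28, 2179 RPM) below it. The intervals of miR-103a-3p, miR-26a-5p and miR-140-3p overlapped that of miR-146a-5p, so these ranks are not separated by counting error, whereas that of let-7c ended at 2400.0 RPM, under the lower bound of miR-146a-5p. In the knockdown library its neighbours were let-7b-5p and miR-221-5p (ranks 30 and 31, 2102 and 2081 RPM) above it, and miR-106b-3p and miR-30a-3p (ranks 33 and 34, 1973 and 1776 RPM) below it. Of these 4, the upper bound of miR-30a-3p, 1898 RPM, lay under the interval of miR-146a-5p, and the other intervals overlapped it. Over both libraries the levels most like those of miR-146a-5p, by Euclidean distance of the 2 values of log2(RPM + 1), were those of miR-26a-5p (distance 0.24), miR-532-5p (0.27), miR-140-3p (0.29) and miR-103a-3p (0.35).

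LOC550643 knockdown was compared with control by the log2 fold change on the log2(RPM + 1) scale, after both libraries were rescaled to the same total. The log2 fold change of miR-146a-5p was -0.40 (interval -0.55 to -0.24), a fold of 0.760. That of miR-146b-5p was 0.43 (interval 0.12 to 0.74), a fold of 1.35. The paralogs thus lay on opposite sides of 0, each with an interval that excludes 0 under this scaling. Their sum had a log2 fold change of -0.20 (interval -0.34 to -0.06), which lay at the median of all 425 miRNAs (-0.20).

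No miR-146 product with more than 3 reads in both libraries was more than 2-fold apart. As background, 45.2% of the 425 miRNAs were more than 2-fold apart, 17.9% higher and 27.3% lower, and most of these had low values. Where the mean reached 100 RPM, as for 124 miRNAs, the share was 8.06% (2.42% higher and 5.65% lower). Intervals that exclude 0 were frequent: of the 201 miRNAs that exceeded 3 reads in both libraries, 35.3% had one, 10.9% above 0 and 24.4% below 0. Among the 124, 35 had a lower log2 fold change than miR-146a-5p and 19 a higher one than miR-146b-5p. With quartiles of -0.45 and 0.24 over the 124, the value of miR-146a-5p was inside the middle range and that of miR-146b-5p above it.

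**Figure D2:**
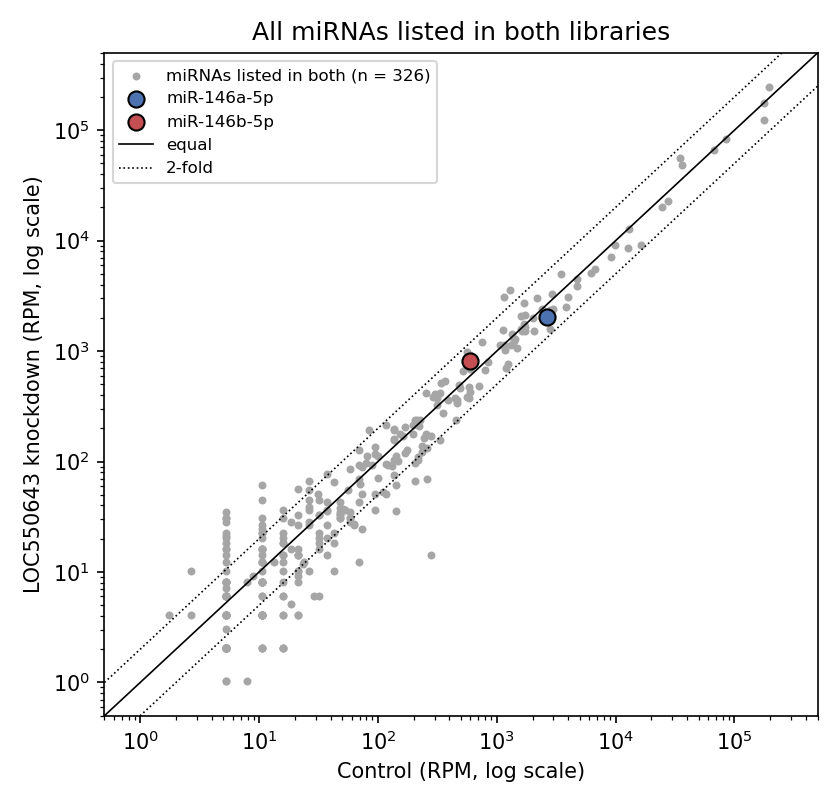
Level in the knockdown library against that in the control library, in RPM on log axes, for the 326 miRNAs listed in both; the solid line marks equal levels and dotted lines a 2-fold difference. The point of miR-146a-5p lies below the line of equal levels and that of miR-146b-5p above it, both within the 2-fold lines.

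The size of these differences depended on the scaling between the libraries. Median-of-ratios scaling, which sets the typical miRNA to no change, raised every log2 ratio by 0.20. Under it the log2 fold change was -0.20 for miR-146a-5p (interval -0.35 to -0.04) and 0.63 for miR-146b-5p (0.32 to 0.94), so that the opposite directions stayed. For the sum it was -0.0047 (interval -0.14 to 0.13). Scaling to the 75th percentile raised every log2 ratio by 0.28. The log2 fold change of miR-146a-5p was then -0.11 with an interval that holds 0 (-0.27 to 0.04), that of miR-146b-5p 0.71 (0.40 to 1.02) and that of the sum 0.0786 (-0.06 to 0.22). The lower level of miR-146a-5p was thus outside counting error with the first 2 scalings and not with the third. Whether the seed family as a whole differed between the libraries thus depended on the scaling.

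**Figure D3:**
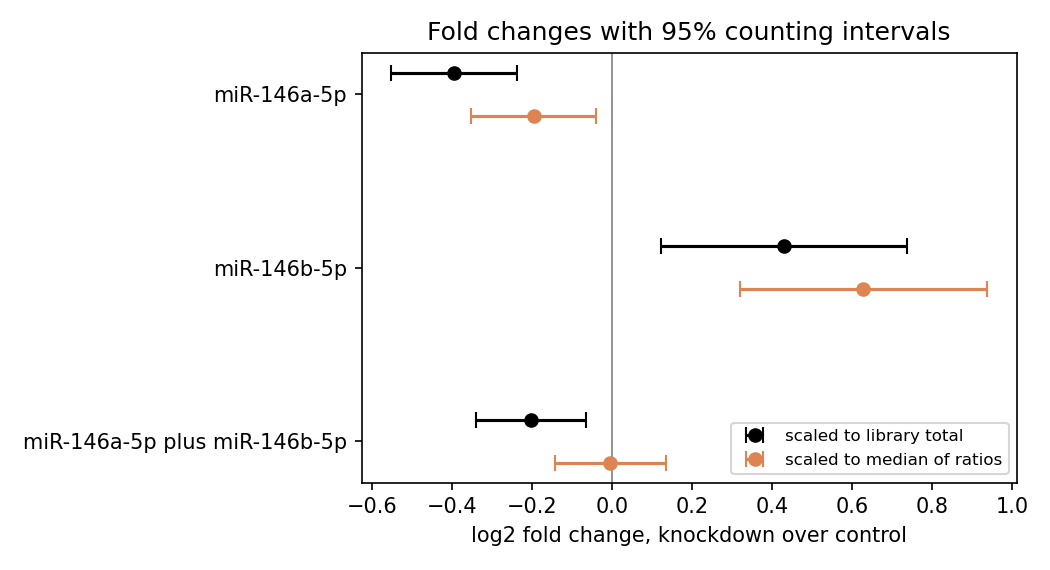
Log2 fold change of knockdown over control for miR-146a-5p, miR-146b-5p and their sum; black points are scaled to the library total and orange points by the median of ratios, and bars are 95% counting intervals. With either scaling miR-146a-5p lies below 0 and miR-146b-5p above 0, and the interval of the sum holds 0 with the median of ratios.

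The balance of the paralogs does not depend on the scaling, since both are counted in the same library. In the control library 81.6% of the 5p reads were miR-146a-5p (interval 78.3% to 84.5%), or 4.44 reads for each read of miR-146b-5p. In the knockdown library the share was 71.5% (interval 69.0% to 73.8%), or 2.50 reads for each of miR-146b-5p. The odds of miR-146a-5p over miR-146b-5p were 1.77-fold higher in the control library (exact conditional 95% interval 1.39 to 2.25, counting error only). The seed family was thus held mainly by miR-146a-5p in both libraries, with a larger part from miR-146b-5p in the knockdown library (28.5% against 18.4%).

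The values of both paralogs lay between whole numbers of reads. In the control library miR-146a-5p amounted to 503.5 reads and miR-146b-5p to 113.5 reads, and in the knockdown library to 995.5 and 397.5 reads. All 4 values thus lay 0.5 read from a whole number, whereas the sums, 617 and 1393 reads, were whole within 0.05 read. Reads that fit both strands and are divided equally between them would give such values, with a remainder of 0.5 read where their number is odd, but the rule the authors used is not given in the sources used here. If reads were divided in this way, their number cannot be read from the tables, apart from a ceiling of 227 reads in the control and 795 in the knockdown library, since the part given to miR-146b-5p cannot exceed its value. At that ceiling, with all divided reads given to one paralog or the other, the share of miR-146a-5p would range from 63.2% to 100% in the control and from 42.9% to 100% in the knockdown library, and these ranges overlap. To bring the knockdown share to that of the control, with the control values left unchanged, 141 reads, 35.5% of its miR-146b-5p value, would have to move to miR-146a-5p. Under equal division this would take 282.5 divided reads, 20.3% of the knockdown sum. The control share is open in the same way, and changes in both libraries together were not computed. Whether reads that fit both paralogs had a part in the difference was not tested. The sum of the paralogs does not depend on this division.

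**Figure D4:**
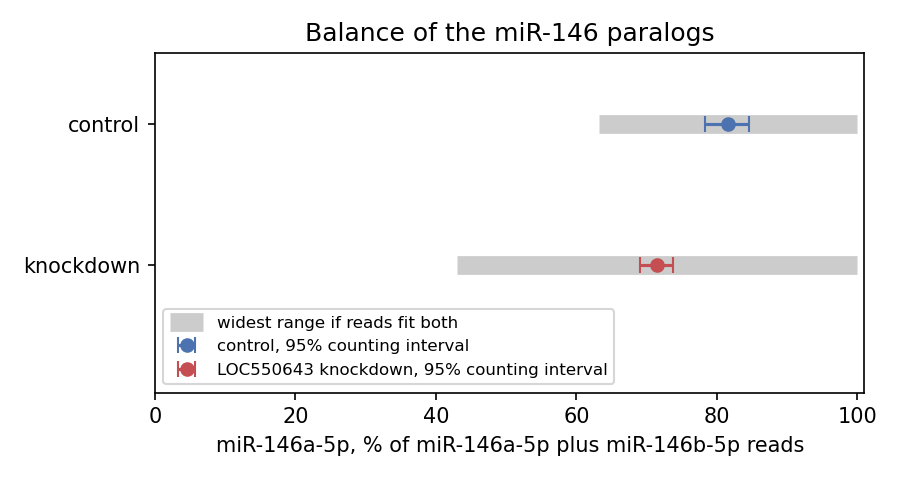
Share of miR-146a-5p among the reads of miR-146a-5p and miR-146b-5p, in percent, in each library; points and bars are the shares and their 95% counting intervals. Grey bands are the widest range if reads that fit both strands were divided equally between them, a rule that the sources used here do not give. The counting intervals are separate (78.3% to 84.5% against 69.0% to 73.8%), and the grey bands overlap.

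Values at fractions of a read were not particular to miR-146. Among miRNAs with a RefSeq mature sequence, 45 values of the control library were more than 0.05 read from a whole number. Identical sequences under another name were not counted as sharing. Of the 45 miRNAs, 53.3% shared a run of at least 15 nt with a human mature miRNA of a different sequence, against 10.9% of those at whole reads. In the knockdown library the shares were 55.0% of 40 and 10.2%.

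Other pairs with a common seed served as a comparison for the opposite directions of the paralogs. Sequences matched by name gave 64 pairs among 48 miRNAs that shared one of 18 seeds and had a mean of at least 100 RPM. A miRNA of a large family, such as let-7, enters several pairs. Names without an arm took the 5p sequence before the 3p sequence. For this reason miR-152 (log2 fold change 0.07), of the miR-148 and miR-152 family, entered no pair with miR-148a-3p or miR-148b-3p. The counts below leave such pairs out. The difference between miR-146b-5p and miR-146a-5p in log2 fold change was 0.82, and 9 pairs differed by more. The median of the other 63 pairs was 0.40. Counting intervals were not computed for these differences, and reads that fit both strands of a pair were not accounted for. In 18 of the 64 pairs the log2 fold changes had opposite signs. One of the pairs with a larger difference was miR-181a-5p and miR-181b-5p (0.86, also with opposite signs), and the pair of miR-148a-3p and miR-148b-3p differed by 0.70. The 9 pairs came from 3 of the 18 seeds: 3 of them held miR-363-3p, 5 were let-7 pairs (4 with let-7d-5p) and 1 was the miR-181 pair. In the other 15 seeds, with that of miR-146 among them, no pair differed by more than the miR-146 pair.

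**Figure D5:**
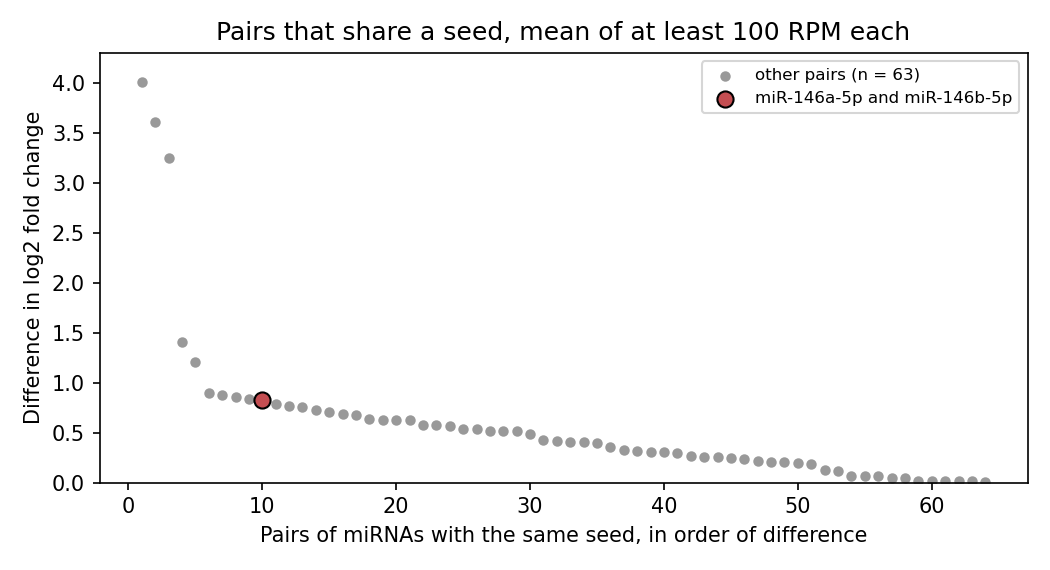
Difference in log2 fold change within each of 64 pairs of miRNAs with the same seed, by sequences matched by name, and a mean of at least 100 RPM each, in order of size. The miR-146 pair, at 0.82, is the 10th, among a group of pairs just under 1 and below 5 pairs above 1.

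Among 25 other miRNAs that the literature links to NF-kB signalling, as targets of NF-kB or as regulators of its components, 24 were listed and 17 had more than 3 reads in both libraries. Intervals excluded 0 above it for 1 of the 17 and below it for 6, against 10.9% and 24.4% of all 201 miRNAs at that depth. The median log2 fold change of the 17 was -0.19, the same as that of the 201 (-0.19). None of the 17 was more than 2-fold higher and 2 were more than 2-fold lower, against 3.48% and 10.9% of the 201. The 2 were miR-16-5p, a repressor of the kinase IKK-alpha, from 143 to 61.0 RPM (log2 fold change -1.21, interval -2.03 to -0.42), and miR-30b-5p, from 217 to 104 RPM (-1.06, interval -1.69 to -0.43).

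The other miRNA best known from NF-kB feedback, miR-155-5p, was near the limit of detection. It had 3 reads in the control (15.9 RPM, interval 3.27 to 46.4) and 5 in the knockdown library (10.2 RPM, interval 3.30 to 23.7), so that both of its intervals lay far below those of the miR-146 5p strands. The level of miR-21-5p was 176111 RPM in the control and 175871 RPM in the knockdown library (log2 fold change -0.0018). Of the other miRNAs of this NF-kB list that reached 1000 RPM, miR-143-3p was the one with an interval above 0, from 35085 to 56408 RPM (0.69, interval 0.65 to 0.72). Intervals below 0 were those of miR-221-3p (4772 to 3889 RPM, -0.29), miR-222-3p (6232 to 5096 RPM, -0.29) and let-7a-5p (9118 to 7154 RPM, -0.35), while those of miR-10a-5p (-0.04) and miR-125b-5p (-0.19), a repressor of the NF-kB inhibitor TNFAIP3, held 0. The log2 fold change of miR-146a-5p was thus close to those of miR-221-3p, miR-222-3p and let-7a-5p. That of miR-146b-5p, which did not reach 1000 RPM, was above 0, as was that of miR-143-3p. Of the 17 miRNAs of the list with more than 3 reads in both libraries, 5 lay above 0 and 12 below it.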

How the data were processed

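Small RNA libraries of both conditions were prepared by the authors with the NEBNext kit and sequenced on the MiSeq (the labels also name a HiSeq), and the reads were assigned to mature miRNAs with their own tool. The submitters' processing notes name FastQC, cutadapt and hg38. The miRNA reference and the handling of reads that fit several miRNAs are not given in the sources used here. The authors deposited RPM values, 1 table per library.

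A miRNA missing from a table was set to 0 and a pseudocount of 1 RPM was used. The worth of 1 read was fitted by least squares to values near whole multiples. The 2 libraries have no replicates, so counting intervals were given in place of tests (scipy 1.17.1, Python 3.11.15). The worth of 1 read, the fold changes and the intervals were checked on simulated libraries of whole reads with counting error only. Values at fractions of a read were not simulated. Intervals under the other scalings were shifted by their offsets. RefSeq mature sequences matched 383 of the 425 names. A name without an arm that was not found as such took the 5p sequence, or else the 3p sequence, so that it could be given the other arm. The named miRNAs were the members, their neighbours in rank, the 4 nearest profiles, miRNAs with the same seed, and, from the NF-kB list, those reaching 1000 RPM in either library or, with more than 3 reads in both, beyond 2-fold. miR-155-5p, miR-181a-5p, miR-181b-5p, miR-148a-3p, miR-148b-3p, miR-152, miR-363-3p, let-7d-5p and miR-3142 were named outside this rule, after their values were seen. The members and lists were chosen with earlier results of these data known.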

Additional observations from a re-analysis of the deposited data

How the results depend on the processing

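No paired analysis was possible because the series holds a single library for either condition. The log2 fold change of miR-146a-5p, -0.40 with scaling to the library total, was -0.20 when scaled by the median of ratios and -0.11 by the 75th percentile, and that of the sum of both 5p strands moved from -0.20 to -0.0047 and, with its sign turned, to 0.0786. These scalings shift every miRNA alike, and under the 75th percentile the interval of miR-146a-5p held 0. For miR-146b-5p the range over all 6 alternatives was 0.42 to 0.71, within its counting interval. Other pseudocounts, the values as deposited and the filter at a mean of 100 RPM moved none of these 3 values beyond its interval. The share of miR-146a-5p was 81.6% and 71.5%. With both arms counted or reads rounded it stayed within its interval. Further alternatives, chosen after seeing the data, presume that reads that fit both paralogs were divided equally. With the most such reads given to miR-146b-5p or to miR-146a-5p, the share was 63.2% or 100% in the control and 42.9% or 100% in the knockdown library. Beyond 2-fold, 76 miRNAs were higher and 116 lower. These counts were 3 and 7 at a mean of at least 100 RPM and 19 and 25 with a pseudocount of 10 RPM, because low values are removed or damped, and 83 and 90 under the median of ratios. The depth limits the 3p strands, of which a level under 15.9 RPM in the control library could not be told from 0.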
